A study of Drosophila melanogaster with 14 samples.

Results

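The nuclear transfer RNA (tRNA) genes of Drosophila melanogaster were followed through chromatin accessibility in wing imaginal discs, from which the adult wing develops. The genes are those with the biotype tRNA and a symbol that starts with tRNA: on the main chromosomes of the annotation, 290 genes in 22 amino acid classes with 44 anticodons and a median length of 73 bp (71 to 186 bp). Accessible regions were made by merging the nucleosome-free ATAC-seq peaks of all 14 libraries, and a region belonged to a tRNA gene if it overlapped the gene extended by 200 bp on each side. By this rule 194 of 33226 regions lay at tRNA genes, and 215 of the 290 genes (74.1%) had at least 1 region.

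ATAC-seq uses a transposase that cuts and tags open DNA. Regenerating discs were collected at 0, 15 and 25 h after the induction of cell death, beside control discs of those times without induced death, and undamaged discs of the third larval instar (L3) were profiled outside the time course. Each of the 7 groups had 2 libraries, prepared from 10 discs per genotype and condition. Damage and genotype coincide in the labels, which give the genotypes only as regeneration and control, place all larvae in the third instar, and give neither the transgenes nor the agent that induced death. An effect of damage and one of genotype therefore cannot be told apart. The labels also do not say that replicates came from separate animals, so the spread between the 2 libraries of a group may be technical. In a whole disc, a region open in fewer cells and one less open in each cell cannot be told apart.

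A tRNA gene is read by RNA polymerase III from a promoter that lies inside the gene. The factor TFIIIC binds an A box near the start and a B box in the sequence that becomes the T loop, and places TFIIIB just upstream of the gene, which recruits the polymerase. Transcription ends in a run of T after the gene. Growing tissue needs much tRNA, and most amino acids are served by many gene copies spread over the genome, often identical in sequence.

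The following genes carry the comparisons between near-identical copies described below. Sequences are those of the NCBI RefSeq genome of Release 6 (dm6), written 5′ to 3′ on the strand of the gene, with the B box in capitals where GTTCNANNC was matched. The pair of arginine genes differs at 1 base, T13C, counted from 1 at the 5′ end of the gene. The pair of tyrosine genes gives the same spliced sequence of 73 bases and differs in the intron, which is 20 bp long in the first and 22 bp in the second.
tRNA:Arg-TCG-2-1 (chrX:14014814-14014886, plus strand, peak in all 14 libraries): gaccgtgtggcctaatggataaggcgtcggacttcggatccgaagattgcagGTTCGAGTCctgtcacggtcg
tRNA:Arg-TCG-3-1 (chrX:14016203-14016275, plus strand, peak in 0 libraries): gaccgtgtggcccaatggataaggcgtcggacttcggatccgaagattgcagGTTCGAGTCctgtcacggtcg
tRNA:Tyr-GTA-1-4 (chr3R:8642333-8642425, minus strand, peak in all 14 libraries): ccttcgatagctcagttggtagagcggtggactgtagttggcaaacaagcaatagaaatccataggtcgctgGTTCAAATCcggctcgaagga
tRNA:Tyr-GTA-1-1 (chrX:21304441-21304535, minus strand, peak in 0 libraries): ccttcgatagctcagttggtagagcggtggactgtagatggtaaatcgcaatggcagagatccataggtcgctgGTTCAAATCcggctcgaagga
The 11 alanine genes of the tRNA:Ala-AGC-2 group are identical in sequence, so that copies with and without a peak differ only outside the gene. They hold no match to GTTCNANNC, a pattern that misses a B box with another letter at a fixed position. One such gene is followed by the 50 bases before it and by the 50 bases before a copy without a peak.
tRNA:Ala-AGC-2-11 (chr3R:19790972-19791044, plus strand, peak in all 14 libraries): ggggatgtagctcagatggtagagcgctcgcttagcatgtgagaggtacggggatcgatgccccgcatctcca
Upstream of tRNA:Ala-AGC-2-11 (chr3R:19790922-19790971, plus strand): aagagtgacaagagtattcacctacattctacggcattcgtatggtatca
Upstream of tRNA:Ala-AGC-2-5 (chr3R:17631115-17631164, minus strand, peak in 0 libraries): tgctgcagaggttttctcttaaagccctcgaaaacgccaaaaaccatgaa

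As a check of the tissue, the wing genes nub, vg, ap, sd and rn each had a region at a transcription start in all 14 libraries. The blood cell genes Hml and NimC1, the neuronal gene nSyb and the fat body genes Fbp1 and Lsp2 had no region at a start in any library, while srp had one in 12 libraries. The muscle precursor genes twi and zfh1 had one in 13 and 14, the tracheal genes btl, trh and vvl in 12, 14 and 14, and the neuronal gene elav in 14. Of 2 regions at starts of elav, 1 was gained in regenerating discs at 0 h, when 5.41% of all regions were gained. The part of this gain in the results on tRNA genes was not tested. The lists held 19174 to 24139 nucleosome-free and 11145 to 13387 mononucleosome peaks per library. The number of reads behind them is unknown.

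Most tRNA genes were either open in every library or in none. A nucleosome-free peak lay within 200 bp of 142 genes in all 14 libraries, of 73 genes in 1 to 13 libraries, and of 75 genes in none. Of the 194 regions, 120 (61.9%) were present in all 14 libraries and 12 in 1 library. The share in all libraries was 59.2% of 9106 regions at protein-coding promoters and 40.8% of all regions. Of the 194 regions 145 served 1 tRNA gene, 43 served 2, 5 served 3 and 1 served 4.

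Histidine was the only class in which all members had a region, 5 of 5 genes. Alanine had 16 of 17, isoleucine 10 of 11, aspartate 12 of 14, glutamate 16 of 19, elongator methionine, the class that carries methionine inside the chain, 5 of 6, leucine 18 of 22 and asparagine 8 of 10. Lysine had 15 of 19, proline 13 of 17, serine 15 of 20, glutamine 9 of 12, phenylalanine 6 of 8, cysteine 5 of 7 and threonine 12 of 17. The lowest shares were in valine with 10 of 15, initiator methionine with 4 of 6, tryptophan with 5 of 8, tyrosine with 6 of 10, arginine with 15 of 26 and glycine with 10 of 20. The single selenocysteine gene, tRNA:SeC-TCA-1-1, had no peak in any library. The classes also differed in how constant their peaks were, since 11 of 17 threonine and 11 of 17 proline genes had a peak in all 14 libraries, against 6 of 19 glutamate and 7 of 22 leucine genes.

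**Figure D1:**
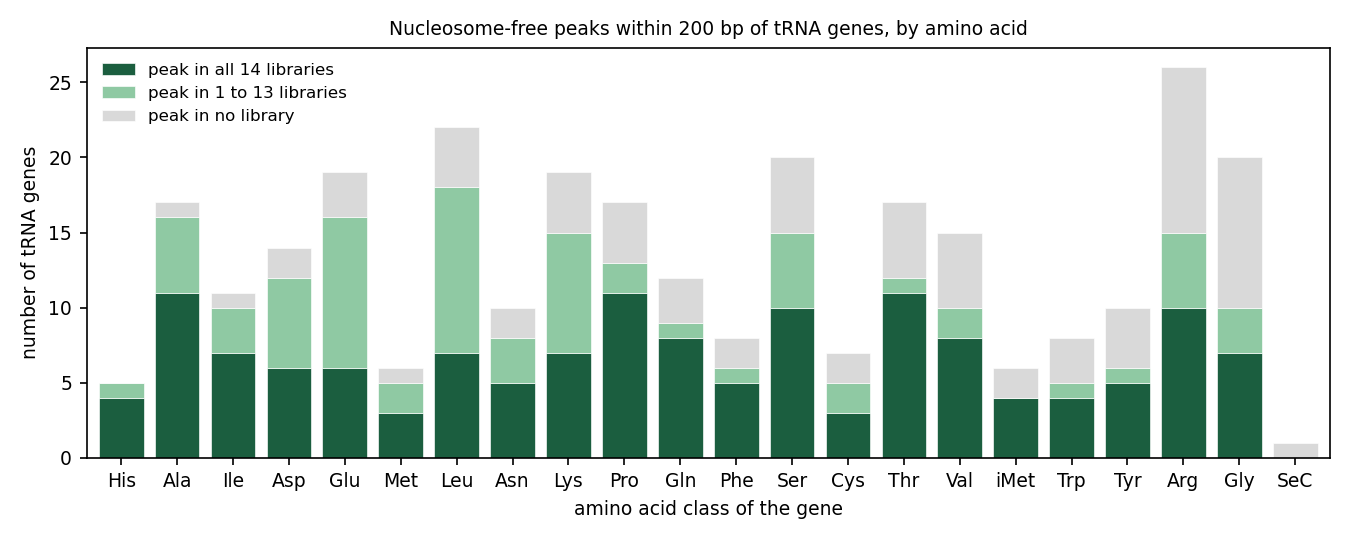
Number of tRNA genes (y axis) in each amino acid class (x axis, sorted by the share with a region), split into genes with a nucleosome-free peak within 200 bp in all 14 libraries, in 1 to 13 and in none. Arginine and glycine hold the most genes without a peak, 11 and 10, and glutamate and leucine the most with a peak in only some libraries, 10 and 11.

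The initiator tRNA, which starts every protein with methionine, was open at 4 genes in all 14 libraries, tRNA:iMet-CAT-1-1, 1-2, 1-4 and 1-5. The other two, tRNA:iMet-CAT-1-3 in an intron of hng3 and tRNA:iMet-CAT-2-1 in an intron of Mmp2, had no peak in any library. The 4 open genes also had a mononucleosome peak within 200 bp in all 14 libraries. None of these 4 genes had TTTT within 25 bp after its end, whereas both genes without a peak did. These few genes carry no test, and a run of T farther away was not counted. Over all genes, 89.4% of the 142 open in all libraries, 97.3% of the 73 open in some and 92.0% of the 75 open in none held this run, against 12.6% of windows of the same length at the centres of all regions. The windows of the genes were chosen to follow a gene end, so the contrast with all regions is set by that choice.

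Copies of the same gene sequence were often treated differently. The 290 genes have 95 distinct sequences, and 238 genes share theirs with at least 1 other, in 43 groups. In 24 of these groups at least 1 copy had a peak in all 14 libraries and at least 1 had none. Of the 13 identical glycine genes tRNA:Gly-GCC-1-1 to 1-13, 5 had a peak in all libraries, 7 in none and tRNA:Gly-GCC-1-11 in 4. Of the 11 identical alanine genes of the Ala-AGC-2 group, 6 had a peak in all libraries, tRNA:Ala-AGC-2-5 in none, and the others in 2, 2, 8 and 13 libraries.

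A read that lies wholly inside identical genes has no unique place, and how the authors treated such reads is not given. It was therefore counted how many 31-base words of each gene and its 200-bp flanks occur once in the genome. The flanks alone, words that touch no base of the gene, had a median of 100% such words in all classes, whether the gene was open in all libraries, in some or in none. All words of the flanks were unique at 101 of the 142 genes open in every library, at 57 of the 73 open in some, and at 60 of the 75 open in none. Among the 218 genes with fully unique flanks, 158 (72.5%) had a region, close to the 74.1% of all genes. Under 50% of the flanking words were unique at 4 genes without a peak, at 2 with a peak in some libraries and at 0 with a peak in all.

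The tyrosine and arginine families show both situations. The 5 tyrosine genes in the stretch of chromosome 3R from tRNA:Tyr-GTA-1-4 to 1-8 all had a peak in 14 libraries. Those at tRNA:Tyr-GTA-1-1 and 2-1 in an intron of Abca3 on X, and tRNA:Tyr-GTA-1-2 and 1-3 on 2L, had none. The gene tRNA:Tyr-GTA-1-9, in an exon of Ntl on 2L, had a peak in 6 libraries, and a start of another gene lies inside it. The flanks of all 10 genes were fully unique. On X, a cluster of 7 genes (14014814 to 14017284) began with tRNA:Arg-TCG-2-1, tRNA:Ser-CGA-1-1 and tRNA:Ser-CGA-1-2, which had a peak in all 14 libraries. The 4 genes tRNA:Arg-TCG-3-1 to 3-4 that follow within the cluster, identical to each other and to Arg-TCG-2-1 but for T13C (98.6% identity), had none. The flanks of these 4 genes were only 50.9, 42.9, 39.4 and 69.4% unique words, against 96.2% at Arg-TCG-2-1, and the part of this in the result was not tested. The other 3 genes of the Arg-TCG-2 group, on 3R and X, had a peak in all 14 libraries.

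Shares also varied with genomic setting, without a test. By chromosome arm, a region was found at 25 of 41 genes on 2L, 82 of 98 on 2R, 36 of 48 on 3L, 59 of 79 on 3R and 13 of 24 on X. Genes with another tRNA gene within 1000 bp had a peak in all libraries in a larger share, 83 of 134 in clusters of 2 or 3 genes and 26 of 51 in clusters of 4 or more, against 33 of 105 genes that stand alone. A gene in a cluster can be counted through the peak of its neighbour within 200 bp. Intergenic genes had a region in 112 of 155 cases, genes in an intron of another gene in 96 of 127, and genes in an exon in 7 of 8. In all libraries a peak lay at 84 of the intergenic, 52 of the intronic and 6 of the exonic genes. Genes without a peak had a median of 64% A and T in the 50 bp upstream, those with a peak in some libraries 60%, and those with a peak in all 57%.

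The letters of the internal promoter were found in like shares of open and closed genes. GTTCGANNC, the stricter form of the B box, was found in 160 of 290 genes, 74 of the 142 open in all libraries and 41 of the 75 open in none. With any base at the fifth position (GTTCNANNC, chosen after seeing the data) it was found in 271 genes, 132 of the 142 and 71 of the 75. An A box, TNG followed directly by NNNANNNGG, was found in 109 of 290 genes, 52 of the 142 and 23 of the 75. This pattern has a fixed spacing, so an A box with another spacing was not counted. Likewise, a B box with another letter at a fixed position of GTTCNANNC was not counted, so a gene without a match may still hold a B box. The regions were chosen for their overlap with tRNA genes, so the contrast with all regions that follows is set by that choice. In windows of 300 bp at the centres of regions, both strands searched, GTTCGANNC occurred in 50.5% of the 194 tRNA regions and 3.3% of all regions, GTTCNANNC in 84.5 and 10.2%, and the A box in 59.3 and 38.8%. GTTCGANNC is contained in GTTCNANNC, and a match describes the letters only.

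The nucleosome-free peaks sat on the start of the gene. At 112 genes with no other tRNA gene and no start of another gene within 500 bp, 37 to 60 genes per library had a peak within 200 bp. The median summit lay 4 to 7 bp upstream of the 5′ end of the gene (median offset −7 to −4 bp over the 14 libraries). Between 55.6 and 67.6% of the summits were upstream, and 4.35 to 6.98% lay more than 100 bp downstream of the 5′ end. The share of the 112 genes under a peak was highest at 3 bp in regenerating discs (40.3%), at −7 bp in control discs (38.1%) and at −12 bp in L3 discs (45.1%), and was 4.17, 3.57 and 4.91% in these 3 sets at 200 bp upstream. Mononucleosome peaks covered 11% of the genes at the 5′ end in regenerating, 12.6% in control and 16.1% in L3 libraries.

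**Figure D2:**
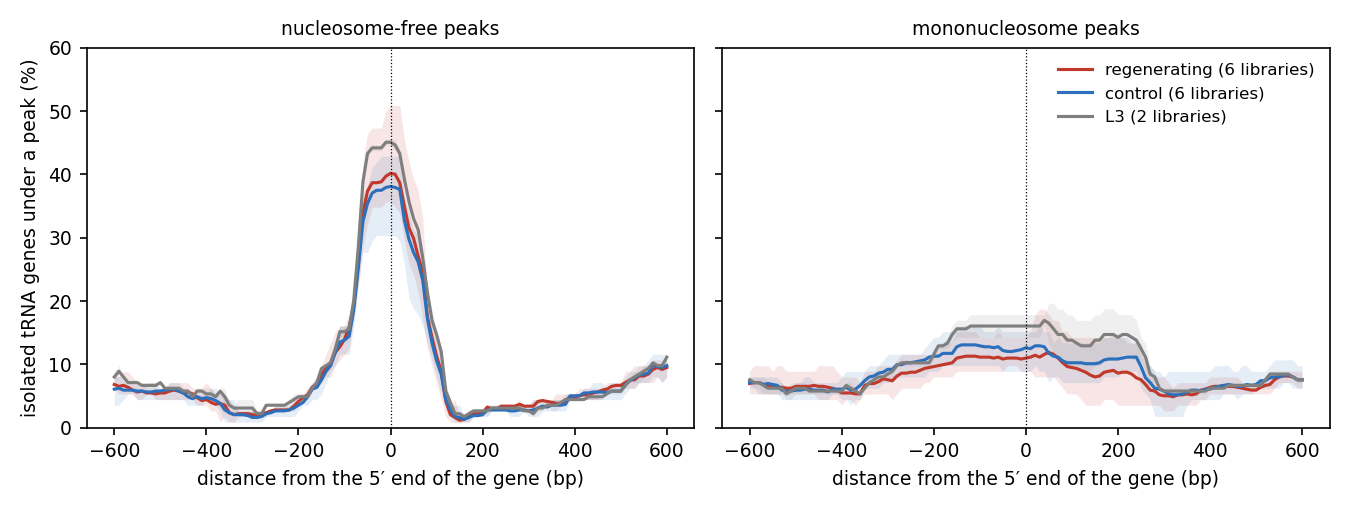
Share of 112 isolated tRNA genes lying under a peak (y axis, percent) by distance from the 5′ end of the gene (x axis, bp, positive into the gene), for nucleosome-free and mononucleosome peaks. Lines are means and bands the lowest to highest library of regenerating (6), control (6) and L3 (2) libraries. The nucleosome-free curves peak at the 5′ end with 40.3, 38.1 and 45.1%.

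Peaks at tRNA genes were of ordinary width and of above-median strength. Their median width was 156 to 177 bp per library, against 151 to 161 bp at protein-coding promoters and 159 to 174 bp over all peaks. The fold enrichment of a peak, the authors' own value, was used only as a percentile within its own list, and the lists differ in length, so no change between libraries is read from it. The median percentile of tRNA peaks was 66.1 to 75.4 per library, and 66.2 to 70.7 at promoters. Between 15.1 and 29.1% of tRNA peaks were in the top 10% of their list.

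The 10 strongest regions present in every library were led by that of tRNA:Arg-CCT-1-3 (2R, 20000615 to 20000897), with percentiles of 99.1 to 99.8 and a median of 99.6. The region of tRNA:Thr-AGT-1-7 (3R, 19802558 to 19802800) had a median of 99.5 (97.8 to 99.9), and a mononucleosome peak in only 1 library. The shared region of tRNA:Ala-AGC-2-7 and 2-8 (3R, 17646625 to 17646860) followed with 98.7, and tRNA:Ser-AGA-2-4 (2L, 3172740 to 3173227) with 98.4. Next were tRNA:Ser-CGA-1-4 with tRNA:Val-AAC-2-1 in an intron of hts (2R, 19414429 to 19414975, 97.9), tRNA:Tyr-GTA-1-4 with 1-5 (3R, 8642344 to 8642562, 97.6), tRNA:Gln-TTG-2-1 (X, 3427438 to 3427702, 97.5), tRNA:Gly-GCC-1-1 in an intron of Wdr62 (2L, 1938112 to 1938418, 97.4), tRNA:Pro-CGG-2-3 (3L, 18618212 to 18618518, 97.3) and tRNA:Ala-AGC-2-11 (3R, 19790855 to 19791112, 97.1). The regions of Ser-AGA-2-4 and Ser-CGA-1-4 also held a start of another gene within 200 bp, CR44003 and snoRNA:hts-a.

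The weakest regions present in all 14 libraries were that of tRNA:Val-CAC-2-4 (3R, 7475858 to 7476039), with a median percentile of 23.1 (13.5 to 40.6) and no mononucleosome peak, and those of tRNA:Leu-AAG-1-2 (27.3), tRNA:Asn-GTT-1-5 with 1-6 and tRNA:Lys-CTT-1-2 (33.6), tRNA:iMet-CAT-1-1 with 1-2 (34.6) and tRNA:Ile-AAT-1-6 with 1-7 (36.6). The last 4 are on 2R. At Leu-AAG-1-2 only 57.9% of the flanking words were unique, and the part of this in its percentile was not tested. A second region at the initiator pair, which reaches tRNA:Glu-TTC-1-4, had a median of 70.3.

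The region with the most tRNA genes held tRNA:Cys-GCA-1-2 and 1-3 and tRNA:Lys-CTT-1-12 and 1-13 (3L, 3096236 to 3096703, 468 bp), was present in all libraries and had a median percentile of 83.4. Of the 5 regions with 3 genes each, the 4 widest were those that start with tRNA:Leu-CAA-2-1 (696 bp), tRNA:iMet-CAT-1-1 (439 bp), tRNA:Ala-AGC-2-2 (350 bp) and tRNA:Trp-CCA-2-3 (339 bp). The 5 widest regions were those of tRNA:Leu-AAG-1-3 (848 bp), tRNA:Glu-TTC-1-5 (762 bp), tRNA:Asp-GTC-1-6 (750 bp), tRNA:Leu-CAA-2-1 with tRNA:Ile-AAT-1-4 and 1-5 (696 bp) and tRNA:Ala-TGC-2-1 (689 bp). The first and second of them also held the start of a small nucleolar RNA gene, snoRNA:U3:54Ab and snoRNA:185. At Leu-AAG-1-3 only 58.2% of the flanking words were unique, and the part of this in the width was not tested. The median over the 194 regions was 187 bp.

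Mononucleosome peaks accompanied a smaller share of the nucleosome-free regions at tRNA genes than at promoters in 14 of 14 libraries. The libraries share their regions, so this carries no test. In each of the 14 libraries the share of present tRNA regions that also held a mononucleosome peak, 57.8% ± 4.61 on average (SD, n = 14, 49.0 to 66.3%), was below that of promoter regions, 79.0% ± 4.08 (70.6 to 84.4%), and of all regions, 65.7% ± 4.76 (57.2 to 74.6%). Regenerating libraries had a share of 56.4% ± 4.54 and control libraries one of 58.2% ± 4.12 (SD, n = 6 each), a difference smaller than the spread. Of the 120 tRNA regions present in all libraries, 19 (15.8%) had no mononucleosome peak in any library, against 4.12% of such promoter regions and 6.41% of all such regions. All 19 were among the 104 that held no start of another gene within 200 bp, and all 16 tRNA regions with such a start had a mononucleosome peak. Of the 142 genes open in every library 123 had a mononucleosome peak within 200 bp in at least 1 library, of the 73 open in some 26, and of the 75 open in none 2.

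**Figure D3:**
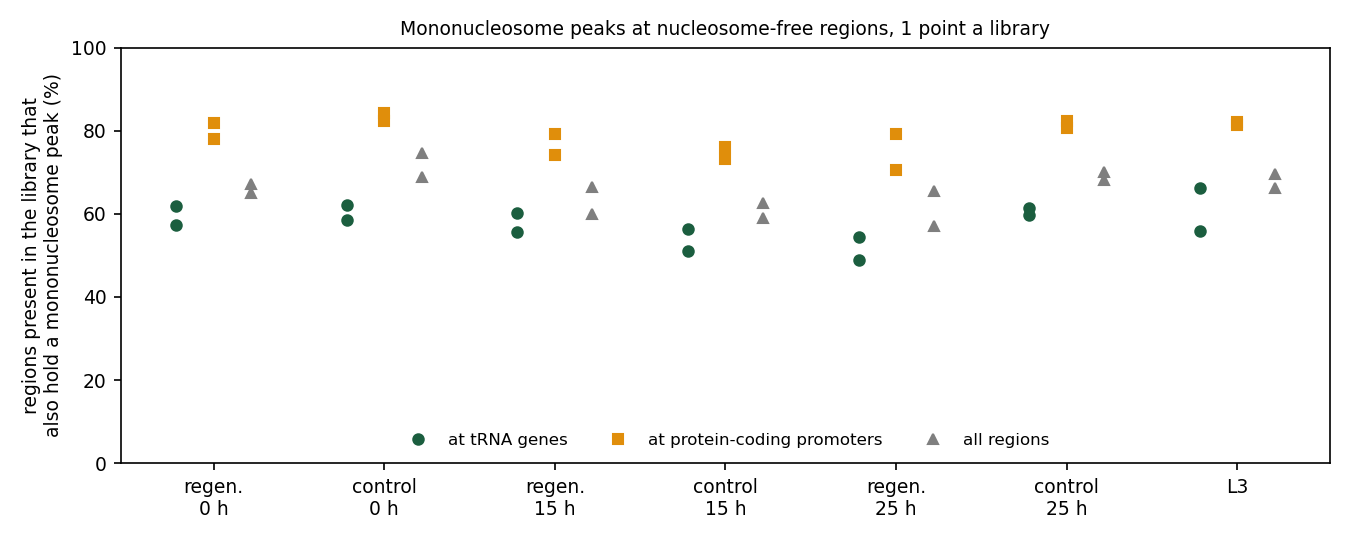
Share of the nucleosome-free regions present in a library that also hold a mononucleosome peak (y axis, percent), 1 point a library, for regions at tRNA genes, at protein-coding promoters and all regions, by group (x axis). The tRNA points lie between 49.0 and 66.3% and the promoter points between 70.6 and 84.4%.

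Regenerating and control discs had the same mean number of open tRNA genes. At 0 h, 164 and 192 genes had a nucleosome-free peak in regenerating discs, against 167 and 183 in control discs. At 15 h the numbers were 159 and 166 in regenerating against 155 and 180 in control discs, and at 25 h 170 and 189 against 174 and 181. The groups overlapped at every time, and in 6 of 6 groups the library numbered 2 had more such genes than the library numbered 1. Over the 3 times regenerating libraries averaged 173 ± 13.8 genes and control libraries 173 ± 10.7 (SD, n = 6 each), a difference of 0, while the same libraries held 23071 ± 973 and 21383 ± 1469 peaks in all. L3 discs had 194 and 188 genes with a peak, against 167 and 183 in control discs at 0 h. Mononucleosome peaks lay within 200 bp of 114 ± 10.4 genes in the regenerating set and 119 ± 7.89 in the control set (SD, n = 6 each).

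**Figure D4:**
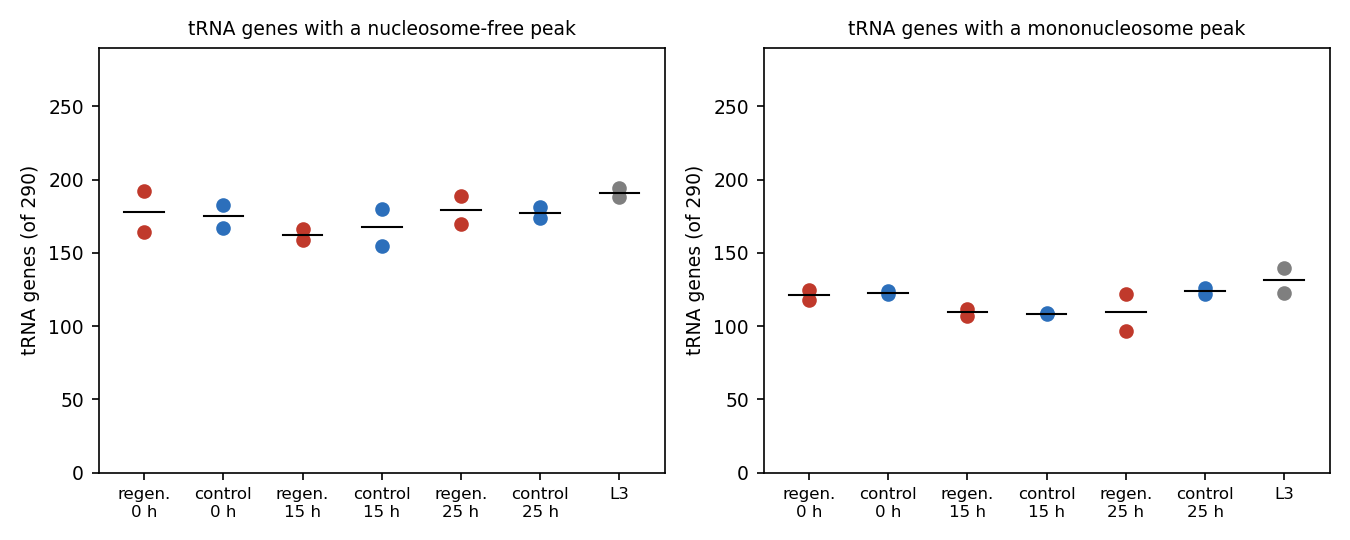
Number of the 290 tRNA genes with a nucleosome-free (left) or mononucleosome (right) peak within 200 bp (y axis) in each library, by group (x axis), with the mean of each group as a line. For nucleosome-free peaks, the regenerating and control libraries overlap at each time, within 155 to 192 genes, and the L3 libraries have 194 and 188.

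Counted per amino acid over genes with a peak in both libraries of a group, cysteine, glutamine, elongator methionine, initiator methionine and selenocysteine had the same number in all 7 groups. The widest ranges were in glutamate and leucine. Glutamate had 9 genes in regenerating against 11 in control discs at 0 h, 6 against 10 at 15 h and 9 against 12 at 25 h, and 14 in L3 discs. Leucine had 11 in regenerating against 8 in control discs at 0 h, 11 against 7 at 15 h and 13 against 15 at 25 h, and 14 in L3 discs. Genes that share a peak are counted separately here, as are tRNA:Glu-TTC-1-1 and tRNA:Glu-CTC-1-1, which share a region. With 2 libraries a group these counts carry no test, and in no other class did the groups differ by more than 3 genes.

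A gained region is one that both regenerating libraries of a time held while the control libraries of that time had no peak there, and a lost region is the reverse. At 0 h 1 of 165 tRNA regions with a peak in at least 2 of the 4 libraries was gained and 0 were lost, against 5.41 and 0.834% of all 22190 such regions. At 15 h 1 of 146 was gained and 3 were lost (all regions 3.19 and 2.54%). At 25 h 4 of 158 were gained and 1 was lost (5.27 and 1.33%). Gains did not outnumber losses at 25 h under every setting, since peak lists of equal length gave 3 gained and 5 lost. Without extension of the genes, or with an overlap of at least 50 bp, the excess shrank to 2 gained and 1 lost. At each time most tested tRNA regions were in all 4 libraries, 133, 122 and 136. The share of tRNA regions gained was 0.606, 0.685 and 2.53% at 0, 15 and 25 h, below that of all regions each time, with no test of the difference.

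The region gained at 0 h was that of tRNA:Ala-AGC-1-1 (3R, 17657042 to 17657215), at percentiles 47.0 and 51.8 in the regenerating and absent from the control libraries of that time. It was also in both regenerating libraries at 15 h (12.8 and 46.5) beside 1 control library (30.6), and in 1 regenerating library (42.6) and 0 control libraries at 25 h. In all it was in 5 of 6 regenerating and 1 of 6 control libraries. The region gained at 15 h, at tRNA:Ala-AGC-2-1 in an intron of nmo (3L, 8028544 to 8028686), had percentiles of 16.6 and 26.3 in the regenerating libraries. At 0 h it was in all 4 libraries, and the control libraries of that time held it at 23.4 and 17.3.

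Of the regions lost at 15 h, the one shared by tRNA:Glu-TTC-1-1 and tRNA:Glu-CTC-1-1 (2R, 16219571 to 16219720) had percentiles of 11.7 and 45.4 in the control libraries and was in 2 of 6 regenerating and all 6 control libraries over the time course. That of tRNA:Ser-GCT-2-4 (3R, 22396823 to 22396953) had 31.9 and 29.6 in the control libraries at 15 h and was in all 4 libraries at 25 h. The region at tRNA:Cys-GCA-2-1 (3L, 1925877 to 1926019) had 57.2 and 27.2 in these libraries. At 25 h it was instead among the gained regions, with 42.8 and 31 in the regenerating libraries, and only 1 of the 5 libraries with it had its own peak within 200 bp of the gene.

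The other regions gained at 25 h were at tRNA:His-GTG-1-3 (2R, 12335235 to 12335367, percentiles 49.4 and 39.0), tRNA:Leu-CAG-1-8 (3L, 22843233 to 22843381, 7.8 and 39.2) and tRNA:Ala-AGC-2-7 (3R, 17646301 to 17646444, 30.8 and 25.6). The gene tRNA:His-GTG-1-3 and the gene tRNA:Ala-AGC-2-7 had a peak within 200 bp in all 14 libraries through a neighbouring region. The region lost at 25 h, at tRNA:Leu-CAG-1-2 and 1-3 (3L, 8060206 to 8060355), had percentiles of 6.5 and 9.6 in the control libraries. Counted per gene instead, by peaks within 200 bp of the gene itself, the 0 h libraries gained 1 gene and lost 0, the 15 h libraries gained 1 and lost 3, and the 25 h libraries gained 1 and lost 1.

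**Figure D5:**
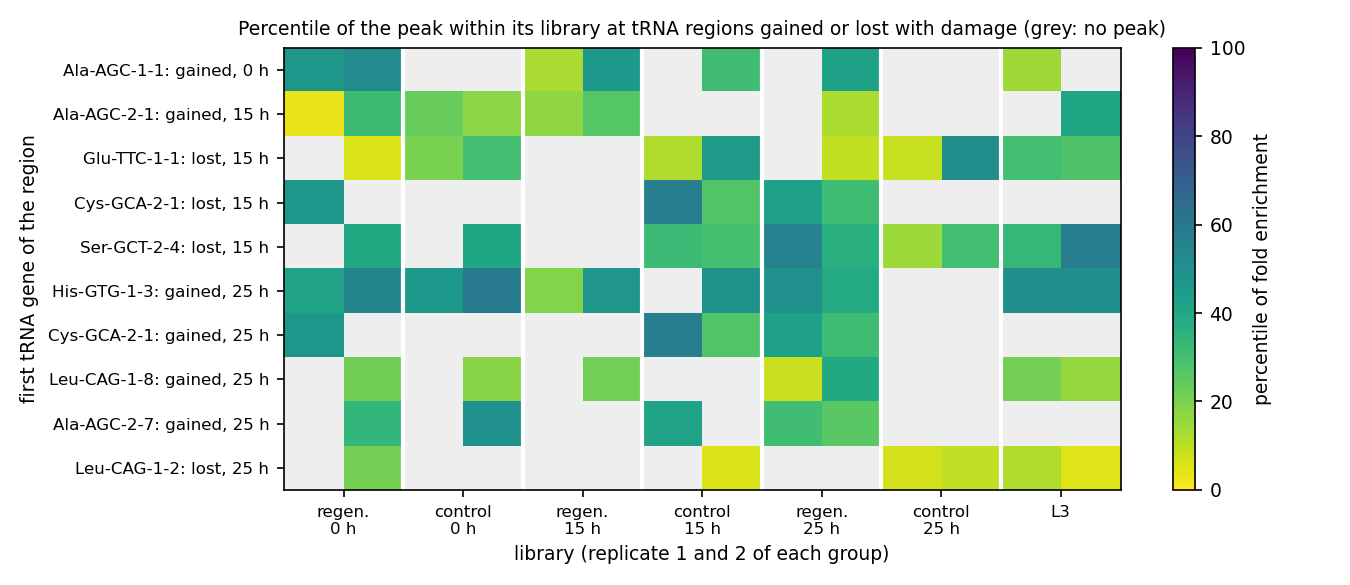
Percentile of the fold enrichment within its library (colour, 0 to 100, grey where there is no peak) for the tRNA regions gained or lost with damage (rows, by the first gene of the region, the call and the time), in the 2 libraries of each group (columns). No peak of these regions is above the percentile of 59.2, and none of these regions has the same call at more than 1 time.

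The presence of each region was also tested over the 12 time-course libraries by an exact permutation test within times (two-sided, smallest possible p 0.00926), with Benjamini-Hochberg adjustment over the 11892 regions that had a peak in 2 to 10 of them. Of all regions, 203 (1.71%) were higher and 38 (0.32%) lower in regenerating libraries at an unadjusted p under 0.05, and 0 passed after adjustment. Of the 51 tRNA regions tested, 0 had an unadjusted p under 0.05 in the exact permutation test, and 1 had in peak lists of equal length. The lowest was 0.0833 in this exact permutation test, adjusted p = 1, for the region of tRNA:Ala-AGC-1-1 (5 of 6 regenerating and 1 of 6 control libraries) and that of tRNA:Glu-TTC-1-1 (2 of 6 and 6 of 6). The smallest adjusted p of any region in the genome was also 1, so after adjustment this design separates no region.

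Mononucleosome peaks at tRNA regions were gained or lost at shares read against those of all regions. At 0 h 0 were gained and 0 lost of 103 (all regions 1.79 and 2.11%), at 15 h 3 were gained and 2 lost of 90 (3.65 and 1.37%), and at 25 h 1 was gained and 3 were lost of 99 (2.66 and 4.12%). At 15 h the gains were at both regions of tRNA:His-GTG-1-1 and 1-2, which had a mononucleosome peak in 12 and 12 libraries and lacked it only in both control libraries at 15 h, and at tRNA:Pro-CGG-2-3. The losses at that time were at tRNA:Thr-AGT-1-4 and at the region shared by tRNA:Trp-CCA-2-3 and tRNA:Gly-GCC-1-12. Both genes of the shared region had a mononucleosome peak within 200 bp in all 14 libraries, so that counted at the genes 1 was lost at 15 h. With 3.33% gained and 2.22% lost at 15 h and 1.01% gained and 3.03% lost at 25 h, the shares at tRNA regions lay near those of all regions. At 25 h the gain was at tRNA:Tyr-GTA-1-9, which also holds a start of another gene, and the losses were at tRNA:Gln-CTG-2-2, tRNA:Gly-GCC-1-2 and tRNA:Gly-TCC-1-1.

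Between times, 0 tRNA regions opened and 4 closed in regenerating discs at 15 h against 0 h, of 151 tested (all regions 2.67 and 3.03%), and 9 opened and 0 closed at 25 h against 15 h, of 156 (2.34 and 2.07%). The 9 are 5.77% of the tRNA regions tested. These comparisons share the 15 h libraries, as do those of control discs. In control discs 1 opened and 3 closed at 15 h against 0 h (4.52 and 1.06%), and 2 opened and 1 closed at 25 h against 15 h (1.12 and 4.17%). The regenerating libraries at 15 h, with 159 and 166 open tRNA genes, held 21779 and 23911 peaks in all.

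The regions that closed in regenerating discs at 15 h were those of tRNA:Glu-CTC-3-4 with 3-5, tRNA:Lys-TTT-2-1, tRNA:Lys-TTT-2-4 and tRNA:Thr-AGT-1-4. The genes Lys-TTT-2-1, Lys-TTT-2-4 and Thr-AGT-1-4 kept a peak within 200 bp in both regenerating libraries at 15 h, through a neighbouring region. The first 3 regions were among the 9 that opened again at 25 h. Their flanks held few unique words, 54.4% at Glu-CTC-3-4, 11.5% at tRNA:Glu-CTC-3-5 and 59.1% at Lys-TTT-2-1 and at Lys-TTT-2-4, and the part of this in the calls was not tested. Glu-CTC-3-4 (3L, 1397615 to 1397767) had percentiles of 29.6 and 55.6 at 0 h, no peak at 15 h and 39.5 and 52.0 at 25 h, and in control discs 42.4 and 65.1 at 0 h, 39.6 in 1 library at 15 h and 30.0 and 75.2 at 25 h. The other regions that opened were those of tRNA:Ser-GCT-2-4, tRNA:Cys-GCA-2-1, tRNA:Ala-AGC-2-7, tRNA:Phe-GAA-1-3, tRNA:Arg-ACG-1-1 with tRNA:Lys-CTT-1-1, and tRNA:Asp-GTC-1-12 with 3-1. All 9 had median percentiles between 5.6 and 52.0, and by peaks within 200 bp of the gene 6 genes opened and 0 closed at 25 h, and 0 opened and 1 closed at 15 h.

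In control discs the region of tRNA:Cys-GCA-2-1 opened at 15 h, and those of tRNA:Asp-GTC-1-7, tRNA:Ala-AGC-2-1 and tRNA:Lys-CTT-1-12 with 1-13 closed. At 25 h those of tRNA:Leu-CAG-1-5 and tRNA:Lys-TTT-2-1 opened while that of tRNA:Cys-GCA-2-1 closed. The genes Lys-CTT-1-12 and 1-13 had a peak within 200 bp in all 14 libraries. By peaks within 200 bp of the gene, 0 genes opened and 2 closed in control discs at 15 h. At 25 h 1 gene, Leu-CAG-1-5, opened and 0 closed by this count. L3 discs against control discs at 0 h opened 4 and closed 1 of 168 tRNA regions (all regions 4.04 and 0.56%). The opened ones were at tRNA:Glu-TTC-1-3, present in the 2 L3 libraries and no other, at percentiles 14.3 and 7.6, at tRNA:Gly-GCC-1-11 (31.9 and 22.4), at tRNA:Leu-CAG-1-2 with 1-3 (11.9 and 4.9) and at tRNA:Asp-GTC-1-12 with 3-1 (25.4 and 14.6). The closed one was at tRNA:Asp-GTC-1-7, which the control libraries at 0 h held at 38.8 and 32.7.

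The sets of present tRNA regions were alike in all libraries. Replicates shared a median of 85.9% of the tRNA regions present in either (Jaccard index, 7 pairs, 80.1 to 89.2%), libraries of the same time and other treatment 84.8% (12 pairs, 82.7 to 88.3%), and the other 72 pairs 84.5% (75.9 to 91.9%). Over all regions the medians were 77.9, 74.0 and 74.3%.

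Other genes were listed by name as read by RNA polymerase III, without a test of which polymerase reads each. They fell into 2 sets, a few single genes that were mostly open and the 5S ribosomal RNA genes, which were mostly without a peak. Of the 9 genes other than 5S, 7 had a region, 5 of them in all 14 libraries. These were both genes of the signal recognition particle RNA (7SLRNA:CR32864 and 7SLRNA:CR42652), the spliceosomal gene snRNA:U6:96Ac, snRNA:7SKa, whose RNA holds back the elongation factor P-TEFb, and RNaseMRP:RNA. Of the other 2 U6 genes, snRNA:U6:96Ab had a region in 13 libraries and snRNA:U6:96Aa in 9, while snRNA:7SKb and RNaseP:RNA had none. Whether polymerase III reads RNaseP:RNA was not tested, so its missing region is not read as a closed polymerase III gene. A second region at 7SLRNA:CR32864 closed in regenerating discs at 15 h and opened at 25 h, as did 3.03 and 2.34% of all regions. Of the 9 genes, 0 had a region gained or lost with damage. Of all regions, 5.41, 3.19 and 5.27% were gained and 0.834, 2.54 and 1.33% lost at 0, 15 and 25 h. Of the 96 genes of the 5S array, which are near-identical repeats, 7 had a region. The region of 5SrRNA:CR33441 was gained at 0 h and at 15 h, when 5.41 and 3.19% of all regions were gained. That of 5SrRNA:CR33440, present in 9 libraries, closed in control discs at 15 h against 0 h, as did 1.06% of all regions. Unique words were not counted for the 5S genes, and the treatment of multi-mapping reads is not given. The part of this in the missing 5S peaks and in these calls was not tested.

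All 17 genes of the polymerase III machinery had a region at a transcription start, 9 of them in all 14 libraries, among them Polr3A, the largest subunit, Brf, Bdp1 and Trf of TFIIIB, the repressor Maf1 and the tRNA end-binding protein La. At Polr3K the region was in only 1 library (percentile 19.3), and at Polr3G in 7. Of the regions at these 17 genes, 1 was gained with damage at 0 h, at Polr3C, a polymerase subunit gene, and 0 were lost. The region at Polr3C was present in 5 libraries in all. A single gain among 17 genes is near the 5.41% of all regions gained at that time. Of all regions, 3.19 and 5.27% were gained at 15 and 25 h, and 0.834, 2.54 and 1.33% were lost at 0, 15 and 25 h. Of 2 regions at Maf1, 1 closed in L3 discs against control discs at 0 h, as did 0.56% of all regions. Of 18 aminoacyl-tRNA synthetase genes, whose products load tRNAs with their amino acid, 16 had a region, 11 of them in all libraries. With damage 0 were gained or lost, a count too small to set against the shares gained and lost over all regions. LeuRS and MetRS had no region, and those of AsnRS and ValRS were in only 1 and 2 libraries.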

How the data were processed

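ATAC-seq peak lists of 14 wing disc libraries were used, 1 of nucleosome-free and 1 of mononucleosome fragments each, called per library. STAR 2.4.0j, MACS2 and dm6 are named in the submitters' processing notes. Not given in the sources used here are fragment limits, peak threshold, control track, treatment of multi-mapping reads and transposase offset. A deposited peak carries the authors' fold enrichment (a ratio), −log10 p-value, −log10 q-value, score and summit position. Fold served only to rank peaks within a list.

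Overlapping (1 bp or more) or adjoining peaks of the libraries were merged, with Python 3.11.15, numpy 2.4.6, pandas 2.3.3 and scipy 1.17.1, and figures were drawn with matplotlib 3.10.9. Genes came from BDGP 6.54 of Ensembl release 115, coordinates are 1-based, and sequences came from the RefSeq genome. The permutation test was tested on simulated data. Read depth is not in peak lists, so no counting interval is given. The members, lists and rules were chosen with earlier results of these data known.

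Named regions were, by rule, the 10 strongest and 5 weakest present in all libraries, all gained or lost with damage, up to 5 opened and 5 closed per other comparison, the 5 with most genes and the 5 widest, initiator methionine, selenocysteine and suppressor genes, every amino acid, and polymerase III genes gained or lost. For the 9 regions opened in regenerating discs at 25 h all were named, which goes beyond the rule, as do the copies of glycine, alanine, tyrosine and arginine genes and the mononucleosome calls, all chosen after their values were seen. The annotation holds 0 tRNA genes labelled suppressor. The marker him was not matched. Alternatives were no extension or 500 bp, −log10 q of at least 5, equal list lengths, ranks by −log10 p, overlap of at least 50 bp, regions without another start, each library left out, and a replicate block. Added after seeing the data were calls from peaks near the gene itself, the relaxed B box and genes with unique flanks.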

Additional observations from a re-analysis of the deposited data

Results flagged for a closer look

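The region at tRNA:Cys-GCA-2-1, present in 5 libraries, moved in opposite directions with damage, lost at 15 h and gained at 25 h. Between 15 and 25 h it opened in regenerating discs and closed in control discs. Of the regenerating libraries 1 held it at 0 h, 0 at 15 h and 2 at 25 h, and of the control libraries 0 held it at 0 h, 2 at 15 h and 0 at 25 h. The difference between the times was not tested, and only 1 of these libraries had its own peak within 200 bp of the gene. No group has more than 2 libraries, so single libraries could not be tested as outliers.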

How the results depend on the processing

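Small counts moved most. Of 108 values recomputed with all libraries, 89 stayed within their limits and 19 did not. Without extension the gains at 25 h were 2, and with 500 bp 1 was lost at 0 h, 2 gained at 15 h and 2 lost at 25 h. At −log10 q of at least 5, 2 were lost at 25 h. In lists of equal length 2 were lost at 0 h, 0 gained at 15 h and 5 lost at 25 h, in control discs 1 region opened or closed at 15 h and 5 at 25 h, and 1 tRNA region had an unadjusted p under 0.05 in the exact permutation test. With an overlap of 50 bp the gains at 25 h were 2 and the mean share with a mononucleosome peak 51.1%. By peaks near the gene itself (chosen after seeing the data) 1 gene was gained at 25 h, 1 opened or closed in regenerating discs at 15 h, and 2 at 15 h and 1 at 25 h in control discs. The relaxed B box gave 84.5%. The causes were not tested. Presence of regions did not deviate together in libraries of the same replicate number (correlations −0.0517, 0.0141 and −0.00600 at 0, 15 and 25 h), so the numbers were not taken as a pairing, although the library numbered 2 had more open tRNA genes in 6 of 6 time-course groups and more peaks in 5 of 6, which adds to the SDs of the gene numbers. With a replicate block 69 regions in all had an unadjusted p under 0.05, 0 of them tRNA regions or significant after adjustment, and the difference in gene number was 0. Leaving out 1 library at a time, where a call then rests on 1 library of a group, gave 210 to 215 genes with a region, 120 to 123 regions in all remaining libraries, 1 to 11 gained and 0 to 6 lost at 0 h, 1 to 9 and 2 to 16 at 15 h, and 4 to 14 and 1 to 9 at 25 h. Regions that opened or closed at 15 and at 25 h numbered 3 to 26 and 9 to 22 in regenerating discs, and 3 to 16 and 2 to 19 in control discs, and 5 to 20 in L3 discs. The difference in gene number was −3.73 to 2.87, regions at an unadjusted p under 0.05 were 241 to 334, of them 0 to 1 at tRNA genes and 0 after adjustment, the share with a mononucleosome peak 57.2 to 58.6%, and regions with none 19 to 23. Read depth limits weak peaks and is not recorded in the lists.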
